A study of Mus musculus with 8 samples.

Results

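The genes described here are 10 members of the platelet-derived growth factor (PDGF) and fibroblast growth factor (FGF) signalling pathways, taken by name from the 37273 gene records of the mouse annotation (GENCODE, build mm9). They comprise the PDGF receptors Pdgfra and Pdgfrb, the PDGF ligands Pdgfa, Pdgfb and Pdgfc, the FGF ligands Fgf2, Fgf9 and Fgf10, and the FGF receptors Fgfr1 and Fgfr2. The measurement was where BRG1, the ATPase of SWI/SNF chromatin remodelling complexes, was found on their DNA by ChIP-seq, a method that sequences the DNA recovered with an antibody. The mice were adult and C57BL/6 by the labels, and the study's methods name wild-type C57BL/6J among the primed mice. They were aged 10 to 12 weeks by the labels and somewhat older by the study's methods. Priming was by daily injections of thymosin β4 (Tβ4, 12 mg per kg) or of the vehicle PBS. Myocardial infarction (MI) by ligation of a coronary artery followed, with further injections after it. Hearts were taken 4 days after MI. Each treatment gave 2 BRG1 ChIP libraries and 2 input libraries, 8 libraries in all. All mice were infarcted, with no uninjured group among these libraries, and the tissue was the digested heart, so the cell type in which BRG1 was bound is not resolved. The values below come from 1 deposited list of BRG1 regions of the Tβ4-primed hearts. Its label gives BRG1 ChIP against input, and the exact call behind it is uncertain. It gives start and end positions only, without a score, a count or separate duplicates, so no spread between replicates, no depth and no comparison with the PBS group could be had, and every difference below is a description.

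PDGF and FGF ligands are secreted proteins that bind receptor tyrosine kinases on the cell surface and signal through adaptor proteins and the MAP kinase cascade. In the heart, Pdgfra is known as a gene of epicardium-derived fibroblasts and Pdgfrb as a gene of pericytes and smooth muscle cells, while FGF9, FGF10 and their receptors are known from growth of the myocardium and movement of epicardium-derived cells. PDGF-AA, PDGF-BB and PDGF-CC are dimers of the products of Pdgfa, Pdgfb and Pdgfc, and FGF2 is a mitogen of endothelial cells and fibroblasts.

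The list was broad. It held 524614 regions with a median length of 600 bp, and together these covered 25.8% of the bases of 21 chromosomes. A gene was therefore read against other genes of its length rather than by whether it had a region at all: 10 of 10 members had at least 1 region within 5 kb of the gene or inside it, as did 95.1% of all gene records. The measure used was the covered share, that is the percentage of bases of the window (the gene with 5-kb flanks) that lay in a region, with its percentile among the 200 genes nearest in length. A percentile of 50 marks a gene covered as much as the middle of those genes. Each member was measured over its gene record and, because some records begin far from the coding transcript, also over the span of the transcript with the longest coding sequence, among coding transcripts of like length.

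Over the gene records, the covered share of the 10 members ran from 7.63% for Pdgfa to 43.8% for Fgfr1, with a median of 36.7%, against a median of 24.0% over all gene records. Over the coding transcripts the median was 35.5%, against 25.1% for all 22359 coding transcripts. The median percentile was 78.25 by record and 74.5 by coding transcript. The record of Fgfr2 spans 3009 kb, and how close to it in length its comparison genes were was not examined. Without Fgfr2 the median percentile by record was 80.5. From the lowest to the highest, the covered shares by coding transcript were 7.70% for Pdgfa, 23.4% for Pdgfc, 24.9% for Fgf10, 25.1% for Pdgfra, 32.7% for Fgf2, 38.3% for Pdgfrb, 38.4% for Pdgfb, 40.7% for Fgf9, 41.6% for Fgfr2 and 47.2% for Fgfr1. With 1 list there is no spread by which neighbours in this order can be told apart.

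The FGF members were covered more than the PDGF members by both measures. The 5 FGF members had a median covered share of 40.7% by record and 40.7% by coding transcript, and the 5 PDGF members had medians of 23.7% and 25.1%. The ranges overlapped by both measures. By coding transcript, Pdgfrb and Pdgfb lay above Fgf10 and Fgf2, and Pdgfra lay above Fgf10. By record, Pdgfrb and Pdgfb lay above Fgf2 and Fgfr2. By record, 2 of 10 members (Fgf10 and Fgfr1) were at or above the 90th percentile of genes of like length, where 10.4% of all gene records lay, and 1 of 10 (Pdgfa) was at or below the 10th percentile, where 10.6% of them lay. By coding transcript, Fgfr1 and Fgfr2 were at or above the 90th percentile, beside 10.5% of all coding transcripts, and Pdgfa stood at the 10th percentile itself.

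**Figure D1:**
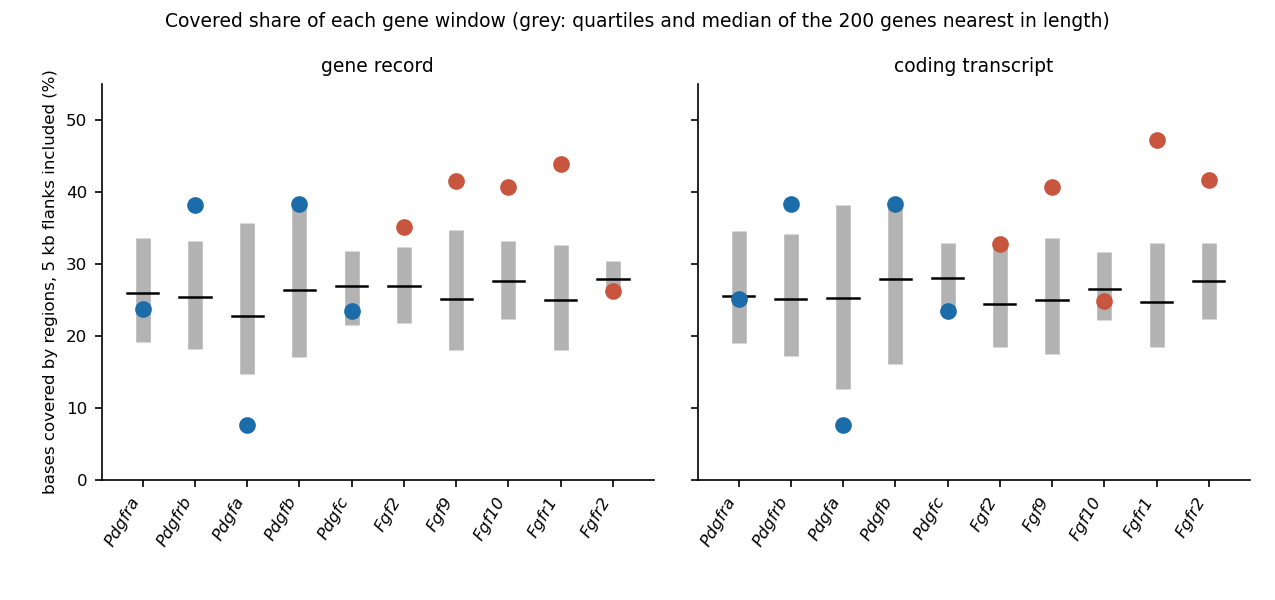
Covered share (% of bases of the gene with 5-kb flanks) of each gene, over the gene record (left) and the coding transcript (right). Points are the genes (blue PDGF, red FGF), grey bars the quartiles and black lines the median of the 200 genes nearest in length; Fgfr1 lies highest in both panels and Pdgfa lowest.

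The PDGF receptors differed in where their regions lay. Pdgfra (ENSMUSG00000029231.9), the receptor of PDGF-AA and PDGF-CC, has its coding transcript of 23 exons at chr5:75552191-75594229 on the plus strand. It held 7 regions that covered 25.1% of the window, at the 48th percentile. They fell into 2 clusters. The 5′ cluster of 4 regions lay from 5.09 to 11.8 kb after the start, over early coding exons, and was followed by 24.2 kb without a region, the longest gap in this gene. The 3′ cluster began at 36.0 kb and ended in a region of 7140 bp, from 41.1 to 48.2 kb, that ran over the 3′ end of the gene. The 5 kb downstream were covered throughout (100%), whereas no base within 5 kb of the start was covered (0%, the 5th percentile). The nearest regions lay 5.38 kb upstream and 5.09 kb downstream of the start.

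Pdgfrb (ENSMUSG00000024620.5), the receptor of PDGF-BB, has a coding transcript of 24 exons at chr18:61204854-61244710 on the plus strand. Its 10 regions covered 38.3% of the window, at the 83rd percentile. The start lay in a gap between regions, with a region of 2280 bp ending 505 bp upstream and one of 1710 bp beginning 216 bp downstream, so that 39.9% of the bases within 5 kb of the start were covered. The largest region inside the gene, 4260 bp at 15.6 to 19.9 kb, covered coding exons before the midpoint of the transcript. A region of 5310 bp lay downstream of the gene and began at 40.9 kb, and 85.2% of the 5 kb downstream was covered, while the 3′ UTR held no region (0%).

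Among the PDGF ligands, Pdgfa and Pdgfb are of similar length but differed in coverage. Pdgfa (ENSMUSG00000025856.9) spans 18.4 kb at chr5:139452470-139470907 on the minus strand, and Pdgfb (ENSMUSG00000000489.6) spans 18.9 kb at chr15:79826330-79845238, also on the minus strand. Pdgfa held 6 regions that covered 7.70% of its window, and Pdgfb held 11 that covered 38.4%. The regions of Pdgfa were short, with a median of 285 bp and a longest of 630 bp, which lay over its 3′ end, and those of Pdgfb had a median of 660 bp and a longest of 4620 bp, downstream of the gene. Pdgfa had no region over 14.0 kb that included the whole 5 kb upstream and the first 9.04 kb of the gene. In Pdgfb, a region of 2370 bp ran from -0.361 to 2.01 kb, over the start, the 5′ UTR (100% covered) and the beginning of the first intron, and 64.4% of the 5′ side of the transcript up to its midpoint was covered against 23.8% of the 3′ side. The further 100 kb on each side was covered to 17.9% at Pdgfa and to 15.6% at Pdgfb. Whether the surroundings bear on the difference between these genes was not tested.

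Pdgfc (ENSMUSG00000028019.3), at chr3:80840338-81017962 on the plus strand, is the longest of the ligands by coding transcript (178 kb) and held 35 regions over 23.4% of its window, at the 24.5th percentile of coding transcripts of like length. No region lay within 3.27 kb downstream or 5.97 kb upstream of its start. A gap of 29.9 kb in the first intron, from 18.8 to 48.7 kb, was the longest stretch without a region in any of the 10 coding transcript windows. Its longest region, 6180 bp at 173 to 179 kb, covered the last coding sequence, the whole 3′ UTR (100%) and the 3′ end of the gene.

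**Figure D2:**
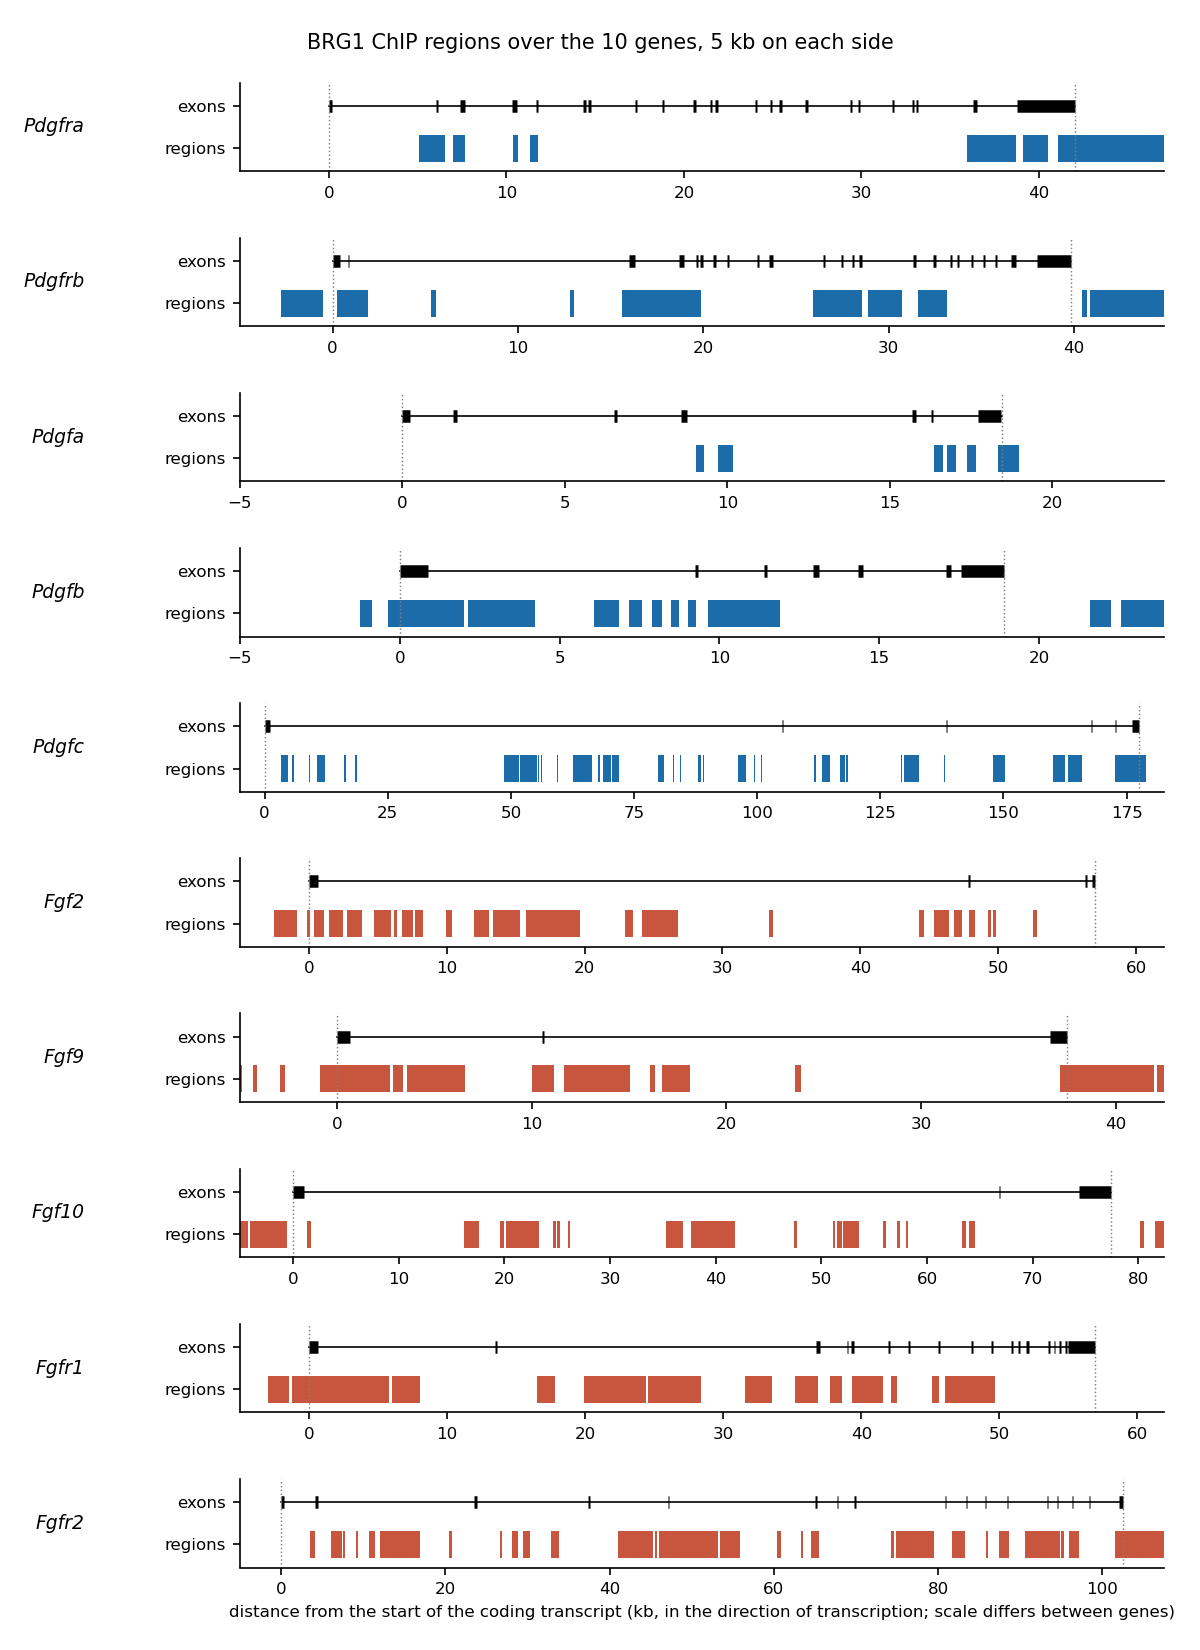
BRG1 regions (coloured bars, blue PDGF and red FGF) and exons (black) of the coding transcript of each gene, in kb from the start of the transcript with 5 kb on each side; dotted lines mark the start and the end, and the scale differs between genes. Regions lay over the start in Pdgfb, Fgf2, Fgf9 and Fgfr1, and over the 3′ end in Pdgfra, Pdgfa, Pdgfc, Fgf9 and Fgfr2.

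The FGF ligands differed in where their regions lay. Fgf2 (ENSMUSG00000037225.6) has its coding transcript at chr3:37247268-37304299 on the plus strand. It held 23 regions over 32.7% of the window, at the 75.5th percentile, and its number of regions per kb was at the 97.5th percentile, the highest of the members. The regions were crowded into the 5′ side: 58.0% of the bases up to the midpoint of the transcript were covered, and 12.3% of those after it. A region of 210 bp, the shortest length in the list, ran from -0.138 to 0.071 kb over the start. The longest region, 3960 bp, lay in the first intron at 15.7 to 19.7 kb. None of the 5 kb downstream was covered (0%); there the gene Nudt6 overlaps the end of Fgf2 on the opposite strand.

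Fgf9 (ENSMUSG00000021974.8), at chr14:58691523-58729011 on the plus strand, held 13 regions over 40.7% of its window, at the 89.5th percentile. Both ends of the gene were covered. A region of 3570 bp ran from -0.873 to 2.70 kb over the start, with the 5′ UTR wholly inside (100%), and one of 4800 bp ran from 37.2 to 42.0 kb over the 3′ end. Up to the midpoint, 66.4% of the transcript was covered, and after it 3.48%, these regions included, and 13.3 kb that ended in the last exon held no region. Fgf10 (ENSMUSG00000021732.8), at chr13:119503506-119580922 on the plus strand, held 22 regions over 24.9% of its window, at the 40th percentile. Its start lay between a region of 3540 bp that ended 547 bp upstream and one of 390 bp that began 1374 bp downstream. The 5 kb upstream were covered to 86.1%, the highest value of any member, whereas neither the 5′ UTR nor the 3′ UTR held a region (0%). The longest region, 4140 bp, lay in the first intron at 37.7 to 41.8 kb.

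By coding transcript, the FGF receptors of the list had the highest covered shares; by gene record Fgfr1 did, and Fgfr2 was covered to 26.2%. Fgfr1 (ENSMUSG00000031565.10), at chr8:26629264-26686186 on the plus strand, had 13 regions over 47.2% of its window, at the 96th percentile. Its regions were few and long: regions per kb were at the 40.5th percentile, the median length was 1980 bp and 6 of 13 regions were at least 2 kb. The longest, 7080 bp, ran from -1.26 to 5.82 kb over the start and the 5′ part of the first intron, so that 78.2% of the bases within 5 kb of the start were covered, at the 98.5th percentile. The 3′ end of the gene and the 5 kb downstream formed the longest gap, 12.2 kb, in which no base was covered. By coding transcript, Fgfr2 (ENSMUSG00000030849.10) showed the opposite arrangement. Its coding transcript, at chr7:137307223-137409705 on the minus strand, held 27 regions over 41.6% of the window, at the 94th percentile, but only 6.30% of the bases within 5 kb of the start were covered, and the nearest region lay 3.50 kb downstream. The longest region, 7230 bp at 46.0 to 53.2 kb, covered a coding exon in the middle of the gene, and a region of 6600 bp from 101.5 to 108.1 kb covered the 3′ end, with 100% of the 3′ UTR and of the 5 kb downstream. At the 5′ end of the gene record the order was reversed. Within 5 kb of it, 26.9% of bases were covered at Fgfr1 (57th percentile) and 46.2% at Fgfr2 (74.5th percentile).

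Covered share and number of regions did not rank the members alike. Pdgfra had regions per kb at the 7.5th percentile and a covered share at the 48th percentile, and Fgfr1 and Pdgfrb also ranked far higher by covered share (96 and 83) than by number (40.5 and 42). The reverse held for Fgf10, with a number at the 73rd and a covered share at the 40th percentile, and for Pdgfa, with a number at the 38th and a covered share at the 10th percentile. Of the 167 regions in the 10 coding transcript windows, 40 (24.0%) were at least 2 kb long, against 19.3% of the whole list, and these made up 63.8% of the bases in the 167 regions, against 60.4% in the whole list. Of the 167, 117 (70.1%) lay within an intron, 34 (20.4%) touched an exon and 16 lay outside the transcript. No such split of the whole list is given here, so these shares describe the members only.

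**Figure D3:**
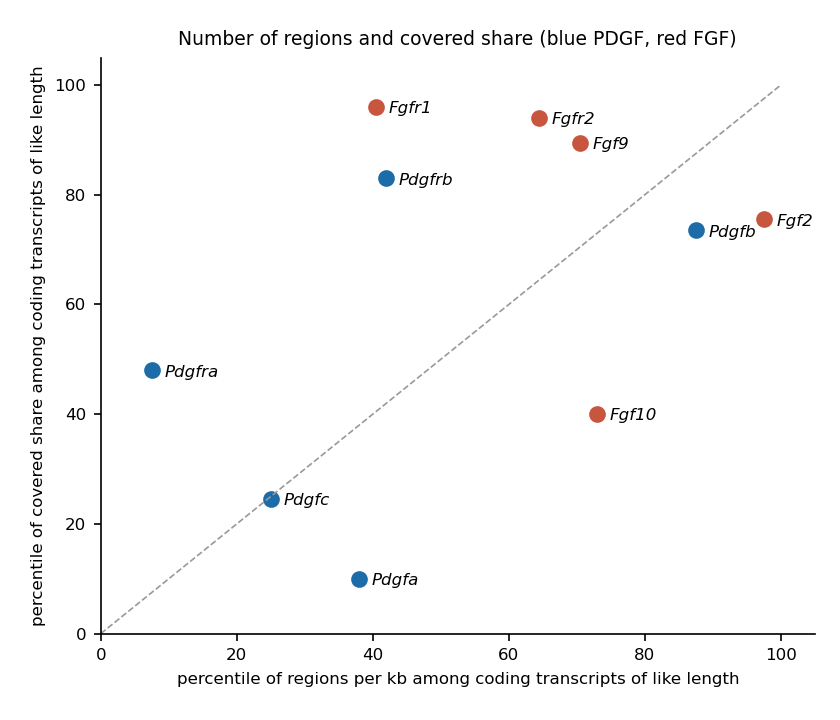
Percentile of the covered share (vertical) against the percentile of regions per kb (horizontal), both among the 200 coding transcripts nearest in length. Genes above the dashed line of equality, such as Pdgfra and Fgfr1, ranked higher by covered share than by number, and genes below it, such as Pdgfa and Fgf10, ranked lower.

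Whether the start of a member lay in a region depended on which start was used. By the 5′ end of the gene record, 4 of 10 members did (Pdgfb, Fgf2, Fgf10 and Fgfr2; 95% Wilson interval 16.8 to 68.7%), against 24.7% of all gene records. By the start of the coding transcript, 4 of 10 did as well (Pdgfb, Fgf2, Fgf9 and Fgfr1), against 24.2% of coding transcripts. Only Pdgfb and Fgf2 were in both sets. These shares of all genes were close to the 25.8% of bases covered, so the list as a whole was not concentrated at starts. The record of Fgfr2 spans 3009 kb because of 1 transcript of that length, while the next longest of its 29 transcripts spans 103.7 kb. Its 5′ end lay 2905 kb from the start of the coding transcript. The 5′ end of the Fgf10 record, under a region of 8370 bp, lay 44.9 kb upstream of its coding start, and that of Fgf2, under a region of 1170 bp, lay 35.8 kb upstream. When any annotated transcript start counted, 6 of 10 members had one in a region, against 32.8% of all gene records, and the exceptions were Pdgfra, Pdgfrb, Pdgfa and Pdgfc. Genes with more annotated starts have more positions that can lie in a region, and Fgfr1 and Fgfr2 have 13 and 15 distinct starts. Pdgfa, however, has 7 with none in a region, and the 1 start of Pdgfb lay in a region. Whether the number of starts bears on this count was not tested. The interval covers counting error only and treats genes as independent.

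At least 1 region lay within 5 kb of the coding start in 8 of 10 members, against 90.5% of coding transcripts, and Pdgfra and Pdgfa were the members without one. The covered share within 5 kb of the coding start was 78.2% for Fgfr1, 60.7% for Fgf9, 51.1% for Fgf2, 48.6% for Pdgfb, 46.9% for Fgf10, 39.9% for Pdgfrb, 14.4% for Pdgfc and 6.30% for Fgfr2, and 0% for Pdgfra and Pdgfa. The median was 43.4%, against 22.2% over all coding transcripts. Within 5 kb of the 5′ end of the record, the share was 94.9% for Fgf2, 91.6% for Fgf10, 48.6% for Pdgfb and 46.2% for Fgfr2. It was 42.75% for Fgf9, 39.9% for Pdgfrb, 26.9% for Fgfr1, 14.4% for Pdgfc, 2.1% for Pdgfra and 0% for Pdgfa. All members except Pdgfrb and Fgf10 had a CpG-rich start (GC of at least 50% and a CpG ratio of at least 0.6 over 1000 bp). Over all coding transcripts, 23.5% of 9995 CpG-rich starts and 24.8% of 12364 other starts lay in a region; the starts of Pdgfra and Pdgfa, without a region, and of Fgfr1 and Fgf9, inside one, were all CpG-rich.

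**Figure D4:**
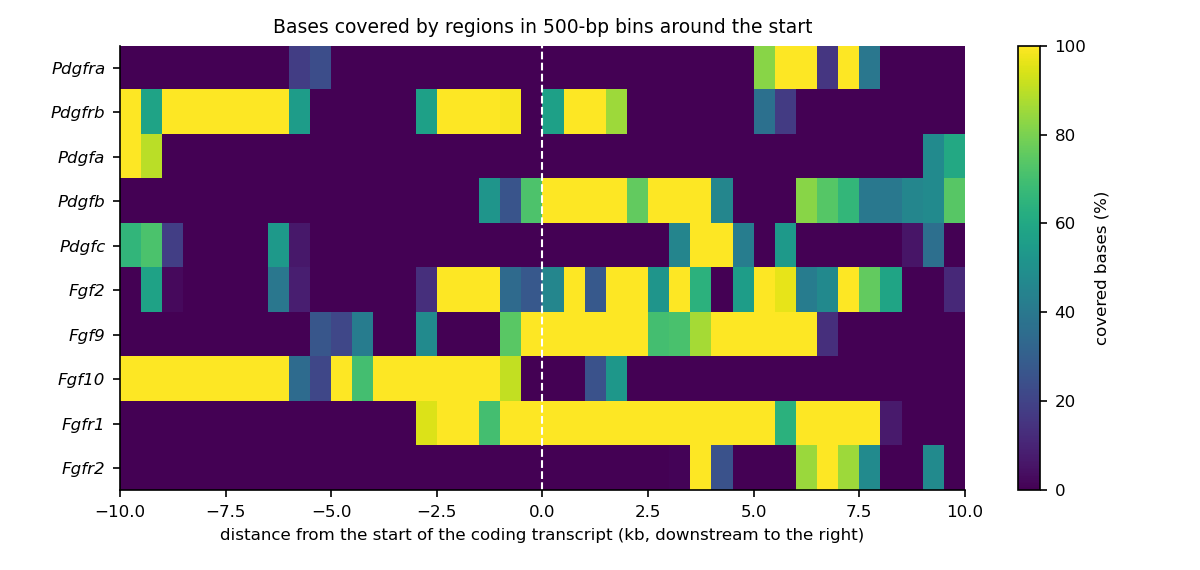
Percentage of bases covered by regions in 500-bp bins from 10 kb upstream to 10 kb downstream of the start of the coding transcript, 1 row per gene. Coverage ran through the start in Pdgfb, Fgf9 and Fgfr1, and in Fgf2 by a region of 210 bp. It lay beside the start in Fgf10 and Pdgfrb, whereas the rows of Pdgfra and Pdgfa were empty within 5 kb.

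The bases just upstream of 4 coding starts are printed to show promoters that differed in coverage. Each stretch is the 300 bp before the start in mm9, 5′ to 3′ in the direction of the gene, and none overlapped an annotated exon. Capitals mark matches on either strand to motifs of common transcription factors: TGANTCA for AP-1, TTNNGNAA, TTGNNNAA or TTNNNCAA for C/EBP factors, AGATAA for the GATA family, GGAATG for TEAD factors, GGGCGG for Sp/KLF factors, and the CArG box of SRF. Overlapping matches run together. For Fgf9, at chr14:58691223-58691522 (plus strand), the whole stretch lay inside the region over the start.
Fgf9: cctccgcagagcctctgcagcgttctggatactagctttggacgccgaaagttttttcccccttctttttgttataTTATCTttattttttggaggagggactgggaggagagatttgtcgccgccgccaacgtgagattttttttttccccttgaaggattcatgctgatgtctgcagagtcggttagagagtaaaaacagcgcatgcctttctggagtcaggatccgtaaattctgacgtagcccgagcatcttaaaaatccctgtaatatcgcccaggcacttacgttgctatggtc

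For Fgf2, at chr3:37246968-37247267 (plus strand), the 138 bp next to the start lay in a region and the rest did not.
Fgf2: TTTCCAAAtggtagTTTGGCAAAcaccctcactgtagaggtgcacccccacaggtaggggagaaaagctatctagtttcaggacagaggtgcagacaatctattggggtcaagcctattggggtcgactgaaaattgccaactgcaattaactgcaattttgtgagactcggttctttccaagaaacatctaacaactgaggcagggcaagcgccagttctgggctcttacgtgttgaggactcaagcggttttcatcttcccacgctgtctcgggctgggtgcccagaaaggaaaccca

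For Pdgfc, at chr3:80840038-80840337, and Fgf10, at chr13:119503206-119503505 (both plus strand), no base of the stretch lay in a region.
Pdgfc: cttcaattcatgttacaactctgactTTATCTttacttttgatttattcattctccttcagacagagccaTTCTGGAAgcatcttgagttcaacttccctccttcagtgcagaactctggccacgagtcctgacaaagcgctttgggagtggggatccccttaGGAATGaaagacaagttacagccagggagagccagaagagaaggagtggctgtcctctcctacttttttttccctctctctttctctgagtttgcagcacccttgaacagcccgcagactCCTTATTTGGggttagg
Fgf10: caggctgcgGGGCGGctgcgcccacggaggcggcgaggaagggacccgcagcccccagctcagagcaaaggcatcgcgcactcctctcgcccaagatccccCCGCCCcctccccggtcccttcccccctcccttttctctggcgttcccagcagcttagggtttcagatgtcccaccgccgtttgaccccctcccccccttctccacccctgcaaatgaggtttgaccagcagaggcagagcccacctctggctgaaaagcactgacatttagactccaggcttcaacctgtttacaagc

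The covered stretch of Fgf9 held 1 GATA match. The 3 C/EBP matches of Fgf2 all lay in its uncovered part. Of the uncovered stretches, that of Fgf10 held 2 Sp/KLF matches, and that of Pdgfc held 1 match each to C/EBP, GATA, TEAD and the CArG box. Among the 300-bp stretches of all 22359 coding transcripts, 51.9% held a C/EBP match, 42.5% Sp/KLF, 13.6% TEAD, 11.3% GATA, 7.03% AP-1 and 1.57% a CArG box, so several of these letters are common. The E-box (CANNTG), in 70.0% of them, was not marked.

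Over the whole windows, starts included, the same motifs were counted in all region bases of the 10 coding transcript windows and in the rest of those windows. Sp/KLF matches numbered 0.295 per kb inside regions and 0.209 outside, a ratio of 1.41, and CArG matches 0.0607 and 0.0482 per kb, from 14 and 24 matches. The other motifs were less dense inside than outside, with ratios of 0.884 for AP-1, 0.887 for C/EBP, 0.891 for GATA, 0.938 for TEAD and 0.947 for the E-box. GC content was higher inside regions than outside in 5 of 10 members, a count that was not made for all genes. Over all chromosomes it was 41.35% inside regions and 41.91% outside. The widest gaps among the members were at Pdgfa (46.9% inside, 55.1% outside) and Pdgfb (56.1% inside, 52.9% outside). As an example of a region in the body of a gene, the middle 300 bp of the 4950-bp region in an intron of Fgfr2, at chr7:137395095-137395394 (minus strand), held none of the marked motifs.
Fgfr2 intron: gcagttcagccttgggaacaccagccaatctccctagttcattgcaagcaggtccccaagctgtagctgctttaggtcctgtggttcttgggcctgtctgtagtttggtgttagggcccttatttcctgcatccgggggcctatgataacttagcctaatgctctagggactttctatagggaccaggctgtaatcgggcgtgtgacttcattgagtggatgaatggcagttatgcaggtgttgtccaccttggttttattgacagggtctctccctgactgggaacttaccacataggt

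The 3′ end of the coding transcript lay in a region in 5 of 10 members (Pdgfra, Pdgfa, Pdgfc, Fgf9 and Fgfr2; 95% Wilson interval 23.7 to 76.3%), against 27.1% of coding transcripts; this count was made after the regions had been seen. The 5 kb downstream of the members was covered to 48.3% in all, against 26.3% over all coding transcripts, with values of 100% for Pdgfra and Fgfr2, 96.4% for Fgf9, 85.2% for Pdgfrb, 40.2% for Pdgfb, 25.9% for Pdgfc, 24.3% for Fgf10 and 10.6% for Pdgfa, and 0% for Fgf2 and Fgfr1. The 5 kb upstream was covered to 26.9%, near the 26.5% of all coding transcripts. Within the transcripts, the pooled covered share was 41.7% for the 5′ UTRs against 24.9%, 32.0% for the coding sequence against 25.9%, 31.9% for the 3′ UTRs against 27.7%, 30.2% for the first introns against 27.4% and 30.9% for the other introns against 27.7%. The 5′ UTR value rested on 5482 bp, of which Pdgfb, Fgf9 and Fgfr1 gave most of the covered bases.

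The regions were set against the chromosome around each gene. In 6 of 10 members the window was covered more than the further 100 kb on each side, as in 48.9% of coding transcripts, and in 8 of 10 more than the further 500 kb, as in 48.1%. The 6 include Pdgfc, at 23.41% against 23.36%. The largest excess over the 100 kb was at Pdgfb (38.4% against 15.6%) and Fgfr1 (47.2% against 25.3%), followed by Fgfr2 (41.6% against 24.5%). Pdgfa (7.70% against 17.9%), Fgf2 (32.7% against 44.5%) and Fgf10 (24.9% against 36.6%) were covered less than that further 100 kb, and Pdgfra stood within 1 percentage point of its own. These flanks were taken around the coding transcript. At Fgf10, Fgf2 and Fgfr2 they held part of the gene's own record, which begins 44.9, 35.8 and 2905 kb upstream of the coding start. For these genes the flanks are therefore not all outside the gene. By record the covered shares were 40.7% for Fgf10, 35.15% for Fgf2 and 26.2% for Fgfr2. ChIP regions carry no strand. Regions in the windows of Fgf2, Pdgfa, Fgf10, Pdgfc, Fgf9 and Fgfr1, in which other annotated genes lie on the opposite strand, could not be assigned to either gene.

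The members were compared with 46 other genes of the same pathways, of which 45 were found in the annotation. These had a median covered share of 22.3% by record and a median percentile of 44, against 36.7% and 78.25 for the members. A region lay over the 5′ end of the record in 6 of 45 (13.3%, 95% Wilson interval 6.26 to 26.2%), against 24.7% of all gene records. The highest percentiles were those of Fgf6 (97), a ligand known from skeletal muscle, of the adaptor Shc1 (95.5) and of Kl (94), the co-receptor of FGF23. The lowest were those of Fgf17 (1.5), of Klb (1.5), the co-receptor of FGF21, and of Fgf3 (2.5), and neither Fgf17 nor Fgf3 had a region in its window. Pdgfd, the remaining PDGF ligand, was covered to 29.1%, at the 62.5th percentile.

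Within the FGF receptor family, the order by covered share was the same for the coding transcript and the gene record. By coding transcript, Fgfr1 and Fgfr2 were covered to 47.2% and 41.6%, and Fgfr4, Fgfrl1 and Fgfr3 to 23.3%, 16.3% and 13.8%, at the 47th, 31.5th and 18th percentiles. By gene record the covered share of Fgfr2 was 26.2%, still above the 23.3% of Fgfr4. Its percentile among the genes nearest in length was 30.5, against 47 for Fgfr4 and 28.5 for Fgfrl1. The Fgfr2 record spans 3009 kb, and how close to it in length its comparison genes were was not examined. Its percentile by record therefore cannot be read as a rank among genes of similar length. Neither the start nor the 3′ end of Fgfr3, Fgfr4 or Fgfrl1 lay in a region. The 19 other FGF ligands ranged from 0% to 58.0% by record, with a median of 19.7% and a median percentile of 40. The 7 feedback inhibitors of FGF signalling differed among themselves: Spry1 was covered to 5.19%, Spry4 to 14.8%, Spred2 to 20.3%, Dusp6 to 22.3%, Spred3 to 31.1%, Spred1 to 31.2% and Spry2 to 36.7%. The start of Spred3 lay in a region. The ETS transcription factor genes Etv4 and Etv5, targets of the pathway, were covered to 20.95% and 21.3%.

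**Figure D5:**
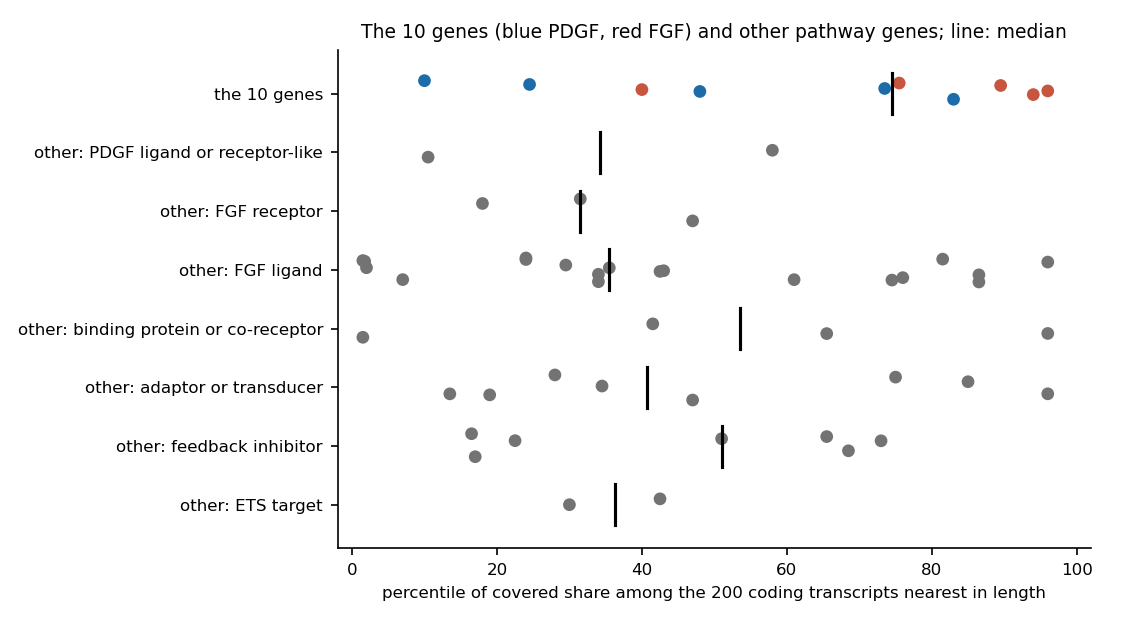
Percentile of the covered share among the 200 coding transcripts nearest in length, for the 10 genes (blue PDGF, red FGF) and for other genes of the pathways by role; vertical lines are medians. The median of the 10 genes, 74.5, lay to the right of the median of each other group.

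Genes that mark cell types of the heart were measured the same way. The 15 marker genes had a median covered share of 34.3% and a median percentile of 76.5, close to the 78.25 of the members. The epicardial genes Tbx18, Aldh1a2, Upk3b and Wt1 were at the 98th, 96.5th, 90th and 77.5th percentiles and Tcf21 at the 10th. The fibroblast gene Col1a2 was at the 99.5th percentile, the mural genes Acta2 and Tagln at 85.5 and 76.5, the cardiomyocyte genes Myh6 and Tnnt2 at 87.5 and 40.5, the leukocyte gene Ptprc at 71.5, and Col1a1 had no covered base (0%). The remaining cardiomyocyte marker Actn2 was at 69 and the endothelial genes Kdr and Pecam1 were at 62.5 and 53. The epicardial markers had a median percentile of 90, the mural and fibroblast markers 81, the cardiomyocyte markers 69 and the endothelial markers 57.75. The share of any cell type in the hearts was not measured.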

How the data were processed

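BRG1 ChIP-seq libraries were made by the authors from PBS- and Tβ4-primed, infarcted hearts. According to the submitters' processing notes, reads were mapped with Bowtie 1.0.0 to mm9 and regions were called with MACS2 2.0.10. The deposited list holds other values than counts, namely start and end positions in bp; how the duplicates were combined is not given in the sources used here, and the depth is unknown. The study's methods name bdgcomp, a MACS2 function that sets ChIP against input, but the list is named as its differential function bdgdiff would name it, so which call made the list is uncertain. Chromosome lengths of the reference equalled those of mm9, the build of the list, and all region ends lay within them.

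Groups were taken from the labels. Regions were counted with at least 1 bp of overlap over gene body and 5 kb flanks, and covered bases were ranked among the 200 genes nearest in length, with ties shared between above and below. Coding transcripts were those with the longest coding sequence, a choice added after the records had been seen. Where a symbol had more than 1 record, the longest was used (Fgfr1). Python 3.11.15, NumPy 2.4.6, pandas 2.3.3, SciPy 1.17.1, pysam 0.24.0, samtools 1.23.1 and matplotlib 3.10.9 were used. Counting, tested on simulated regions, equalled that of bedtools 2.31.1 for 37273 of 37273 genes. No test was possible.

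The members and lists were chosen with earlier results of these data known. Named genes were the 10 members, in order of role, and, of the other pathway genes, the 3 highest and 3 lowest percentiles, Pdgfd, Fgfr3 and Fgfr4; Fgfrl1, the feedback inhibitors and the ETS targets were named after their values were seen. Alternatives were joined regions, limits on region length, other windows, comparison genes and starts, numbers per kb and leaving out each member. PBS-primed data, input data and signal were not analysed here. Spry3 was not matched in the annotation. The sequences of some further stretches are not reported here.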

Additional observations from a re-analysis of the deposited data

How the results depend on the processing

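No paired analysis was possible because the list does not separate the duplicates. A value of the members as a group counted as unchanged where a count was within 1.5 times, or where a percentile or share was within the 95% Wilson interval of the reported value. For a percentile, that interval took the 200 genes nearest in length as trials. For the median covered share it took the 2132 steps of 30 bp in the median member window (34.7 to 38.75%). Those steps are not independent of each other. By that rule 63 of 78 such values were unchanged and 15 moved, and of the percentiles of single members 65 of 100 were unchanged and 35 moved. The unchanged values include all those without regions longer than 100 kb, which were identical to the reported ones. They also include all medians with 1 member left out, which can only shift to a neighbouring value. These alternatives say little about how stable the results are. The count of members with a region over the start was 4 to 6 throughout. Joining regions within 500 bp gave a median covered share of 38.9%, a median percentile of 83.75 and 0 members at or below the 10th percentile. Leaving out regions shorter than 600 bp gave a median covered share of 32.3%, 414 regions in the member windows in place of 797, and 3 in place of 6 pathway genes with a region over the 5′ end. The gene body alone gave 32.6% and 0 members at or below the 10th percentile; flanks of 20 kb gave 31.1%, a median percentile of 70.25 and 0 members. Within 1 kb of the 5′ end, the median percentile was 63.6 in place of 75.75. Counting any transcript start gave 14 pathway genes. Regions per kb in place of covered share lowered the median percentile to 58.25. Coding transcripts gave 167 regions in the windows. Leaving out each member in turn gave median covered shares of 35.1 to 38.2% and median percentiles of 76 to 80.5. Regions per kb moved the percentiles of 9 of 10 members, that of Fgfr1 from 93.5 to 26, and coding transcripts moved 3 of 10, that of Fgf10 from 95 to 40 and that of Fgfr2 from 30.5 to 94. The cause of these changes was not tested. Most of the fall to 167 regions by coding transcript lay at Fgfr2, with 632 regions by record and 27 by coding transcript. Other members with a shorter coding transcript lost regions too, such as Fgf10 (36 and 22) and Fgf2 (31 and 23).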
